A study of Mus musculus with 5 samples.

Results

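Type B and other non-A intercalated nuclei of the mouse kidney were picked from 5 single-nucleus RNA libraries by a rule on transcript counts. A nucleus needed at least 2 unique molecular identifiers (UMIs, each standing for 1 captured RNA molecule) summed over 9 intercalated cell genes, Atp6v0d2, Atp6v1g3, Foxi1, Slc4a1, Kit, Aqp6, Slc26a4, Slc4a9 and Insrr. Its sum over Slc26a4, Slc4a9 and Insrr had to be at least 1 and larger than its sum over the type A genes Slc4a1, Kit and Aqp6. It also had to show 0 UMIs of Flt1 and Slc12a3. The rule found 214 of 16359 nuclei with at least 200 detected genes, of 16666 barcodes in all, and these 214 are called non-A nuclei. The mice were male and aged 10 to 12 weeks at surgery, and every animal carried Six2-TGC, Rosa26rtTA and pTRE-H2BeGFP and ate doxycycline food (625 mg/kg). Six2 is a gene of nephron progenitors, so the histone-bound green fluorescent protein (GFP) marks the nephron lineage. Nuclei were sorted on DAPI and then on GFP. A pair of libraries, GFP-negative and GFP-positive, came from kidneys without injury. The other 3 held GFP-positive nuclei taken after clamping of both renal pedicles and release (ischaemia-reperfusion injury, IRI), at 64 h, at 96 h and at 28 d. Serum creatinine was 0.122 mg/dL without injury, and 0.375, 0.312 and 0.144 mg/dL at 64 h, 96 h and 28 d. Blood urea nitrogen was 26.1, 37.0, 91.8 and 31.7 mg/dL in the same order. The labels call the controls uninjured whereas the study's design text speaks of sham surgery, so whether those animals were operated on is unclear. Both uninjured libraries carry identical serum values, so they may come from the same animals. Each was still entered as a library of its own in the tests below.

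Intercalated cells sit in the connecting tubule and collecting duct and move acid and base with a vacuolar proton pump, the V-ATPase. Type A cells pump protons into the urine and export bicarbonate to the blood through the exchanger AE1, which Slc4a1 encodes. Type B cells secrete bicarbonate into the urine through pendrin (Slc26a4), a chloride and bicarbonate exchanger, and carry the transporter AE4 (Slc4a9) on the blood side. Non-A, non-B cells have pendrin and the proton pump on the same, urine-facing side. Nuclear RNA does not show which membrane a protein sits in, so type B and non-A, non-B nuclei were not separated. Insrr encodes the insulin receptor-related receptor, which senses alkaline fluid, and Foxi1 a forkhead transcription factor of intercalated cells.

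Slc26a4 lies on the minus strand at chr12:31519827-31559969 and Lsamp, the gene with the lowest adjusted p in the comparisons below, on the plus strand at chr16:39984361-42181679 (mm10, GENCODE annotation). The 250 bases before a RefSeq start of each gene, which differs from the GENCODE start just given, are shown because Slc26a4 chose the class, Lsamp led it among other genes and Foxi1 is a forkhead factor. They come from RefSeq (GRCm38.p6), read 5′ to 3′ on the gene's own strand, from chr12:31559985-31560234 and chr16:39984114-39984363. Capitals mark the forkhead core TGTTTA, searched on both strands (TAAACA on the other).
Slc26a4: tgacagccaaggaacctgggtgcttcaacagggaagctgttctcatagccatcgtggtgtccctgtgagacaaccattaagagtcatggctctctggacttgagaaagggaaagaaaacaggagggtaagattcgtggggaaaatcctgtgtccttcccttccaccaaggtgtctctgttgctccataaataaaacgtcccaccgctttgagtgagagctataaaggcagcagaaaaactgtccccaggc
Lsamp: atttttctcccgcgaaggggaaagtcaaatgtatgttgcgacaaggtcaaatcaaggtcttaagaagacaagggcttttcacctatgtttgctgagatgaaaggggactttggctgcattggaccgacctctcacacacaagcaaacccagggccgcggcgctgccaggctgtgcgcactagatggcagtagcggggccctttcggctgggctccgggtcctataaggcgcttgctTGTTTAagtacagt
The core occurred 1 time before this Lsamp start and 0 times before the Slc26a4 start, and another Lsamp start in the RefSeq table had 0 matches. In windows of 300 bases that run on past the start, 13.4% of 32851 RefSeq promoters held it. A match is a description of letters and not a binding site.

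The kept nuclei had median depths of 507 UMIs (96 h) to 1793.5 UMIs (uninjured GFP-positive). Non-A nuclei had medians of 1353.5 UMIs (uninjured GFP-negative), 1511 (uninjured GFP-positive), 1131 (64 h), 532 (96 h) and 965 (28 d), and their summed totals ran from 11210 (96 h) to 126527 UMIs (GFP-negative). Levels are given in CPM, the usual counts-per-million unit, relative to all UMIs of the class in 1 library. CPM is not corrected for gene length, so it compares libraries and classes but not genes. With 1 library per group no condition could be tested, and all 95% intervals cover counting error only. Pairs of libraries shared 9 to 20 barcodes, and no shared barcode was a non-A nucleus in both.

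Non-A nuclei were most frequent in the uninjured GFP-negative library, with 84 of 3338 nuclei (2.52%, exact binomial interval 2.01 to 3.11%). The uninjured GFP-positive library held 25 of 3508 (0.713%, 0.462 to 1.05%). After injury there were 55 of 3012 at 64 h (1.83%, 1.38 to 2.37%) and 19 of 3202 at 96 h (0.593%, 0.358 to 0.925%). The 28 d library had 31 of 3299 (0.940%, 0.639 to 1.33%). Only the GFP-negative and 64 h intervals lay above the uninjured GFP-positive one. Because the rule needs UMIs, each nucleus was also thinned to 400 UMIs, which left out 142 GFP-negative, 900 96 h and 81 28 d nuclei. The shares were then 2.44% (1.93 to 3.04%) in GFP-negative, 0.684% (0.439 to 1.02%) in uninjured GFP-positive, and after IRI 1.20% (64 h, 0.838 to 1.65%), 0.478% (96 h, 0.239 to 0.853%) and 0.653% (28 d, 0.404 to 0.996%). At equal depth the 64 h interval overlapped the uninjured GFP-positive one, and the GFP-negative interval stayed above all 4 others.

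Type A nuclei, found by the mirrored rule, gave the balance between both classes as far as each was detected. Of typed intercalated nuclei, 54.9% were non-A in the GFP-negative library (84 non-A and 69 type A, 46.7 to 62.9%). In the uninjured GFP-positive library 69.4% were non-A (25 and 11, 51.9 to 83.7%). After IRI it was 87.3% (64 h, 55 and 8, 76.5 to 94.4%), 95% (96 h, 19 and 1, 75.1 to 99.9%) and 75.6% (28 d, 31 and 10, 59.7 to 87.6%). Thinned to 400 UMIs the shares were 69.0, 96, 92.3, 100 and 80.8% in the order GFP-negative, uninjured GFP-positive, 64 h, 96 h and 28 d, so the place of the uninjured GFP-positive library in this order changed with depth. Thinning left 78 non-A and 35 type A nuclei in GFP-negative, and 24 and 1 in uninjured GFP-positive. In GFP-negative the non-A trio summed to 9998 CPM in non-A nuclei and the type A trio to 2404 CPM in type A nuclei. Type A nuclei were thus missed more readily at low depth, and the shares are not true proportions of both types.

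**Figure D1:**
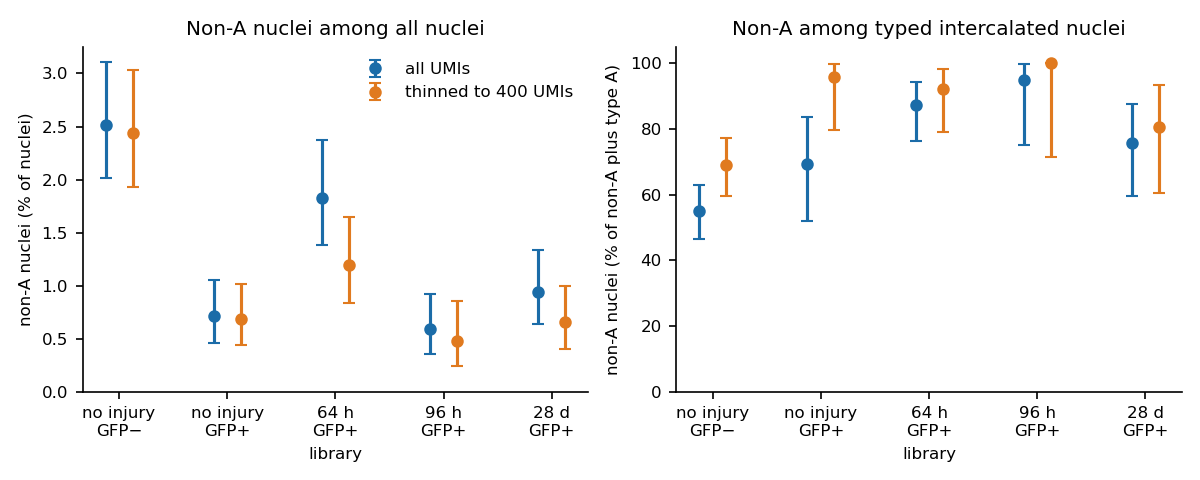
Share of non-A nuclei among all kept nuclei (left) and among typed intercalated nuclei (right) in each of the 5 libraries, in percent, as deposited and thinned to 400 UMIs, with exact 95% binomial intervals. The GFP-negative library has the highest share of all nuclei (2.52%) and the lowest share of typed nuclei (54.9%).

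The 3 genes that chose the class are given as a description. Slc26a4 stood at 5951 CPM in GFP-negative, 5214 in uninjured GFP-positive, 4138 at 64 h, 2230 at 96 h (25 UMIs, interval 1443 to 3292) and 3098 at 28 d. Slc4a9 stood at 3074, 2487, 1784, 2765 and 1646 CPM in the same order, and Insrr at 972, 802, 450, 981 and 629 CPM. Slc26a4 was thus highest in both uninjured libraries, while Slc4a9 and Insrr at 96 h lay within the range of the uninjured pair or just above it. A UMI of Slc26a4 was seen in 66.7, 80, 76.4, 68.4 and 67.7% of non-A nuclei. Among nuclei with at least 3 UMIs of proximal tubule genes, a cell type that should lack pendrin, the share was 1.10, 1.05, 0.978, 0.218 and 0.496%, at median depths of 2241, 2017.5, 1455, 543 and 1070 UMIs. Those proximal tubule nuclei included 2, 10, 6, 2 and 11 that also met the non-A rule.

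Within the class, 92 nuclei had UMIs of all 3 genes, 45 of Slc26a4 and Slc4a9, 6 of Slc26a4 and Insrr, and 7 of Slc4a9 and Insrr. Slc4a9 was the sole gene of the trio in 51 nuclei, Slc26a4 in 9 and Insrr in 4. A type A gene was also seen in 26 of the 214. At the edge of the rule, 25 members had exactly 2 panel UMIs and 30 exceeded their type A sum by 1. Just outside were 201 nuclei whose single panel UMI was of the trio, 24 nuclei with equal sums, 23 with at least 2 panel UMIs and no typed gene, and 40 that met the rest of the rule but had a UMI of Flt1 or Slc12a3. Those 40 held 279 UMIs of Slc26a4, 156 of Slc4a9 and 160 of Slc12a3, the sodium chloride cotransporter of the distal convoluted tubule.

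Clustering all nuclei without the 11 genes of the rule put 150 of the 214 (70.1%) into 1 cluster of 286 nuclei. It was led by Lsamp, Tmem117 and Atp6v1c2 and also held 69 of the 99 type A nuclei, 1 of 693 connecting tubule and principal nuclei and 0 of 8714 proximal tubule nuclei. Both latter classes were picked to have at most 1 UMI over the 9-gene panel, so their near absence is not independent of that choice. This Lsamp-led cluster took 68 of 84 non-A nuclei in GFP-negative, 13 of 25 in uninjured GFP-positive, 42 of 55 at 64 h, 9 of 19 at 96 h and 18 of 31 at 28 d. The largest other group was 20 nuclei in a cluster led by Slc8a1, Egf and Slc12a1, 10 of them from the uninjured GFP-positive library. A cluster led by Clu and Lcn2, a pair of injury genes, held 15 (7 at 64 h, 7 at 96 h and 1 at 28 d). The 64 non-A nuclei outside the Lsamp-led cluster were not shallower (median 1532 UMIs against 1142.5 inside). They held less Slc26a4 (2180 against 6566 CPM) and Lsamp (2523 against 7820 CPM). They held more of the proximal tubule genes Lrp2 (598 against 27.5 CPM) and Slc34a1 (1609 against 225 CPM), and more of Slc12a1 of the thick ascending limb (712 against 110 CPM). By genes outside the rule, then, 150 members grouped with type A nuclei and 64 did not. Whether the 64 hold RNA of more than 1 nucleus was not tested.

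Non-A nuclei were next set against type A nuclei, counts summed per library and class, with the library as a block in edgeR's quasi-likelihood test. The fit used 195 non-A and 98 type A nuclei of 4 libraries (the 96 h library had 1 type A nucleus and was left out). Of 5357 genes tested without the genes of the rule, 49 were higher in non-A nuclei at an adjusted p under 0.05 (0.915% of those tested) and 15 were lower (0.28%), 1.19% in either direction. The median log2 fold of all tested genes was 0.13. The libraries stand in for replicates although they differ in sort and injury, and the uninjured pair may share animals. The p-values thus measure only the spread between these libraries.

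Lsamp, a neuronal cell adhesion protein of the IgLON family, had the lowest adjusted p. It stood at 6125 CPM in GFP-negative, 4973 in uninjured GFP-positive, 7587 at 64 h, 2230 at 96 h and 3751 at 28 d. Type A nuclei had 518, 0, 78.6 and 266 CPM in the same libraries without 96 h. All non-A values lay above all of these, and the log2 fold was 4.80 ± 0.40 (SE, edgeR adjusted p 1.31e-29). Nbea, a membrane trafficking protein (chr3:55625195-56183701, minus strand), showed 2395, 1564, 1874, 1427 and 1718 CPM, against 132, 31.1, 78.6 and 66.6 CPM in type A nuclei. Its log2 fold was 4.61 ± 0.44 (edgeR adjusted p 1.74e-22), and no library overlapped. Tmem163, a zinc transporter, rose by 4.35 ± 0.58 on the log2 scale (162 against 5 UMIs, edgeR adjusted p 9.75e-11).

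A set of genes was found in non-A nuclei and at 0 UMIs in the 98 type A nuclei, so that only lower bounds on the fold can be given, set against 3 counts over the type A sum. Hmx2, a homeobox transcription factor (chr7:131548773-131558014, plus strand), had 42, 5, 10, 1 and 15 UMIs in non-A nuclei of the 5 libraries. Without the 96 h library that is 72 UMIs, at least 12.7-fold higher (edgeR adjusted p 6.18e-08). Kcnq3, a voltage-gated potassium channel subunit (chr15:65986387-66286642, minus strand), had 57, 10, 1, 1 and 10 UMIs and was at least 13.8-fold higher (edgeR adjusted p 1.29e-08). Kcnq3 was not even across libraries, with 450 CPM in GFP-negative and a single UMI at 64 h. Rp1, a microtubule protein known from photoreceptors, was at least 11.8-fold higher (67 against 0 UMIs, edgeR adjusted p 2.70e-07). Syt7, a calcium sensor of membrane fusion, and Ank, a pyrophosphate transporter, each had 49 against 0 UMIs (at least 8.65-fold). Slc9a9, an endosomal sodium and proton exchanger, had 29 against 0 (at least 5.12-fold), Cacna2d1, a calcium channel subunit, 28 against 0 (at least 4.94-fold), and Rgs2, a regulator of G protein signalling, 22 against 0 (at least 3.88-fold).

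Casr, the calcium-sensing receptor, had 42 UMIs in non-A and 1 in type A nuclei (ratio 22.2, counting interval 3.78 to 899), and Fam65b had 61 and 1 (ratio 32.3, 5.58 to 1296). Pkib, an inhibitor of protein kinase A, had 40 and 1 UMIs, and Cacna1e, a calcium channel, 41 and 2. Irs1, the insulin receptor substrate, chosen after its values were seen, had 215 against 15 UMIs and a log2 fold of 3.16 ± 0.46 (edgeR adjusted p 5.34e-09). Among the called genes, 5 of 34 with a RefSeq promoter that were higher held the forkhead core (14.7%), against 11.2% of the 4135 tested genes with one.

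Genes lower in non-A than in type A nuclei included Slc26a7, a type A chloride and bicarbonate exchanger, and Adgrf5, a receptor of type A cells. Slc26a7 had 8 against 59 UMIs (log2 fold -3.39 ± 0.63, edgeR adjusted p 3.02e-05) and was at 0 in both classes at 64 h. Adgrf5 stood at 150, 80.2, 45.0 and 145 CPM in non-A nuclei and 893, 435, 78.6 and 266 CPM in type A nuclei (GFP-negative, uninjured GFP-positive, 64 h, 28 d), lower in 4 of 4 libraries. Its log2 fold was -1.97 ± 0.45 (edgeR adjusted p 0.00188). The Adgrf5 counts were small in non-A against type A nuclei at 64 h (3 against 1 UMIs) and at 28 d (6 against 4). Defb1, an antimicrobial defensin, fell by 1.62 ± 0.40 on the log2 scale (62 against 124 UMIs), and Cacnb2, a calcium channel subunit, by 1.37 ± 0.36 (114 against 201 UMIs). Fgf12, Lrrc31, Ctnnal1, Rapgef4, Rbms3 and Fras1 were also lower in all 4 libraries, with log2 folds of -2.56 to -1.40. In some libraries that rests on few type A UMIs, as for Rbms3 at 64 h (75.0 against 78.6 CPM, 5 against 1 UMIs). Negr1, an IgLON adhesion protein like Lsamp, chosen after its values were seen, went the other way from Lsamp with 19 against 102 UMIs (log2 fold -2.94).

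Of 17 V-ATPase genes tested 1 was higher in non-A nuclei than in type A nuclei, the subunit Atp6v1c2 (log2 fold 1.62 ± 0.39, edgeR adjusted p 0.00591), and 0 were lower. Over all tested genes 0.915% were higher and 0.28% lower, and the list's median log2 fold was 0.45 against 0.13 over all genes. Of 17 acid-base transport genes Car12, a membrane carbonic anhydrase, was higher and Slc26a7 lower. Car12 stood at 1747, 1183, 1469 and 1597 CPM in non-A nuclei of the 4 libraries and at 640, 280, 393 and 533 CPM in type A nuclei, with no overlap (log2 fold 1.88 ± 0.34, edgeR adjusted p 1.74e-05). Of 18 receptor and signalling genes Casr and Ptger3, a prostaglandin E2 receptor, were higher (Ptger3 79 against 8 UMIs, log2 fold 2.04 ± 0.56) and Adgrf5 lower. Hmx2 was the 1 called gene of 13 intercalated transcription factor and Notch genes. None of 10 glycolysis genes and 19 respiratory chain genes passed the test.

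The type A class was mixed too, since in the uninjured GFP-positive library 1 of its 11 nuclei lay in the Lsamp-led cluster, against 58 of 69 in GFP-negative. With both classes cut to that cluster, type A nuclei numbered 58 in GFP-negative, 1 in uninjured GFP-positive, 6 at 64 h and 4 at 28 d. The minimum of 5 nuclei was not applied here. In that fit 15 genes were higher, all among the 49, and 0 lower (edgeR, 190 genes at an unadjusted p under 0.05). Among those 15 were Lsamp, Nbea, Tmem163, Hmx2, Kcnq3, Rp1, Syt7, Ank and Fam65b, whereas Casr (log2 fold 5.78) and Adgrf5 (-1.24) missed the threshold. Without the GFP-negative library, which held 69 of the 98 type A nuclei, 20 genes were higher and 0 lower (edgeR, 197 at an unadjusted p under 0.05), and Kcnq3, Rp1, Syt7, Fam65b, Casr, Pkib and Adgrf5 were not called.

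**Figure D2:**
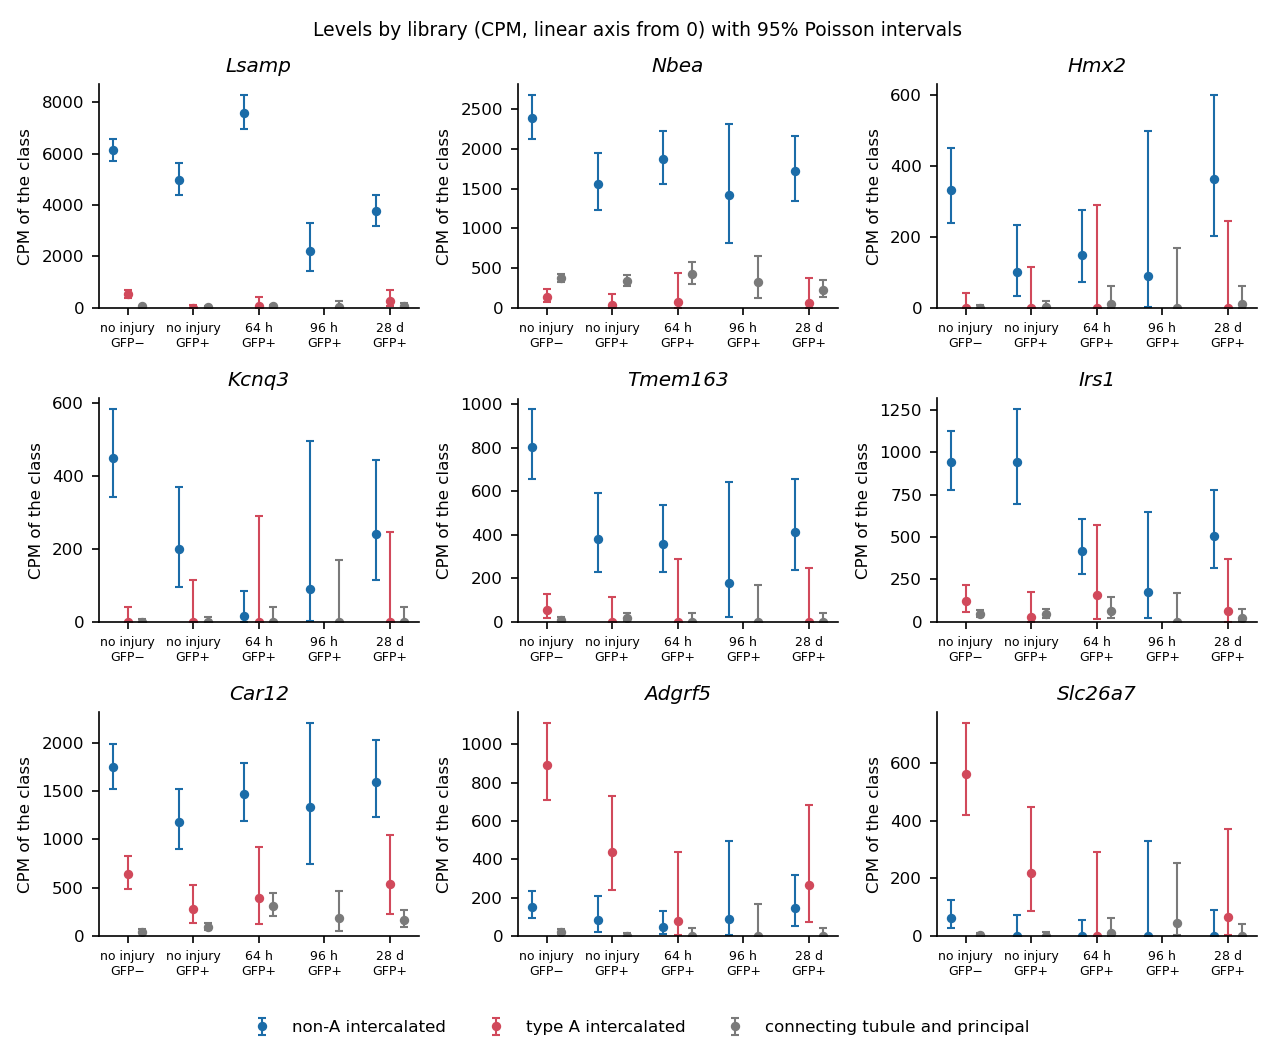
CPM of 9 named genes per library in non-A nuclei, type A nuclei (libraries with at least 5) and connecting tubule and principal nuclei, with exact 95% Poisson intervals. Lsamp and Nbea in non-A nuclei lie above type A nuclei in every library drawn, and Adgrf5 lies below, at 64 h on 3 against 1 UMIs.

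Among non-A nuclei themselves, those with and without Slc26a4 differed in other genes. Slc26a4 was seen in 152 nuclei, of which 77.6% (70.2 to 84.0%) lay in the Lsamp-led cluster, and 15 of the 152 had a type A UMI. Slc4a9 without Slc26a4 was seen in 58 nuclei, of which 51.7% (38.2 to 65.0%) lay in that cluster, and 11 of the 58 had a type A UMI. The latter were shallower (median 975.5 against 1319 UMIs), so a missed Slc26a4 UMI and an absent transcript cannot be told apart in 1 nucleus. The split uses genes of the rule, and it is given as a description with no test.

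Within the cluster, 118 nuclei with Slc26a4 were set against 30 with Slc4a9 and no Slc26a4. A type A UMI was seen in 11 of the 118 and in 11 of the 30. The type A genes Kit (53.2 against 383 CPM) and Slc4a1 (26.6 against 279 CPM) were higher in the 30, so the 30 carried more type A transcripts. Slc4a9 itself (3214 against 2858 CPM) and the pump subunit Atp6v0d2 (1204 against 1185 CPM), both genes of the rule, were at like levels. Slc4a9 had to be present in each of the 30, while 110 of the 118 had it, so its level was shaped by this choice. Kcnq3 had 50 UMIs in 18 of the 118 nuclei and 10 UMIs in 1 of the 30. Lsamp (8930 against 2788 CPM), Nbea (3227 against 767 CPM) and Car12 (2296 against 836 CPM) were higher with Slc26a4, with intervals that did not overlap. Hmx2 had 65 UMIs in the 118 nuclei (433 CPM, 334 to 551) and 2 in the 30 (69.7 CPM, 8.44 to 252). Rp1 had 59 and 1 UMIs, and Foxi1 58 and 3. Adgrf5 and Slc26a7, which were lower in non-A than in type A nuclei, went the other way. Adgrf5 stood at 33.3 CPM (10.8 to 77.6) with Slc26a4 and 802 CPM (508 to 1203) without. Slc26a7 had 1 UMI with Slc26a4 and 6 without, in 3 nuclei (6.65 against 209 CPM).

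**Figure D3:**
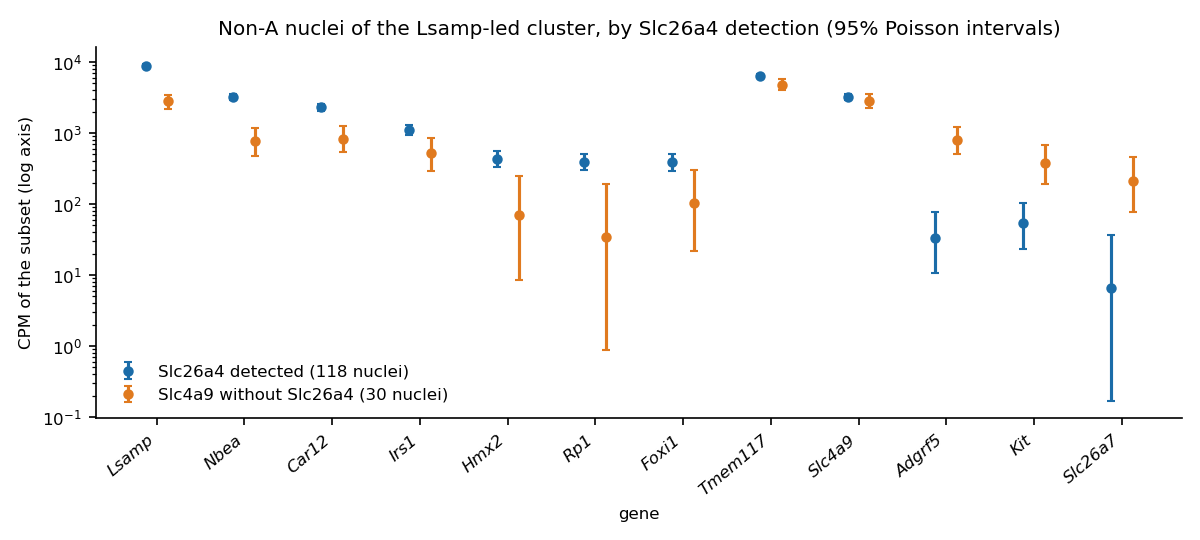
CPM (log axis) of named genes in the non-A nuclei of the Lsamp-led cluster, 118 with Slc26a4 and 30 with Slc4a9 but no Slc26a4, with exact 95% Poisson intervals. Lsamp, Nbea, Car12 and Hmx2 lie higher with Slc26a4, Adgrf5 lies higher without it (802 against 33.3 CPM), and Slc4a9 is at a like level in both. The 30 were chosen to have Slc4a9. A type A UMI was seen in 11 of the 30 and in 11 of the 118.

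Connecting tubule and principal nuclei, the neighbours of intercalated cells in the same tubules, were the second reference (693 nuclei, at least 3 UMIs over Slc8a1, Calb1, Aqp2, Aqp3, Scnn1b and Scnn1g). They also had to show at most 1 UMI over the 9-gene panel of the rule and 0 UMIs of Flt1 and Slc12a3. Of 9459 genes tested over 5 libraries, 195 were higher in the 214 non-A nuclei (2.06%) and 274 lower (2.9%), 4.96% in either direction, and the median log2 fold of all tested genes was -0.15. Lsamp again had the lowest adjusted p, with 5781 against 52.2 CPM (log2 fold 6.53 ± 0.31, edgeR adjusted p 1.01e-95). Hepacam2, an adhesion molecule of intercalated cells, had 131 against 2 UMIs (ratio 221, 59.8 to 1840), and Tshr, the thyrotropin receptor, 120 against 3 (ratio 135, 45.0 to 662). Pde4b, a cAMP phosphodiesterase, had 533 against 42 UMIs (log2 fold 5.16 ± 0.30) and Syn2, a synapsin, 210 against 41 (4.34 ± 0.32). Kcnq3 was at least 88.7-fold higher (79 against 0 UMIs) and Bmp8a, a secreted growth factor, at least 24.7-fold (22 against 0). Zcchc16, Klhl29, Emb, Tmem163, Rp1 and Hmx2 were also among the 15 with the largest folds, at 4.64 to 6.10 on the log2 scale. Of the higher genes with a RefSeq promoter, 26 of 136 held the forkhead core (19.1%), against 10.7% of 7233 tested genes.

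Proton pump genes were higher in non-A nuclei than in these neighbours. The reference nuclei were chosen to be low in the panel, which holds the pump genes Atp6v0d2 and Atp6v1g3, so this difference is not independent of the choice. Of 17 V-ATPase genes 8 rose and 0 fell, with a list median of 0.97. They were Atp6v1c2 (206 against 5 UMIs, log2 fold 6.81 ± 0.42, edgeR adjusted p 1.25e-54), Atp6v1b1 (2.22 ± 0.42), Atp6v1d (2.16), Atp6v1a (1.57), Atp6ap2 (1.56), Atp6v1h (1.51), Atp6v0a4 (1.10) and Atp6v0b (0.81). Of 23 acid-base transport genes 6 rose and 3 fell (list median -0.29). The higher ones included Car12 (459 against 94 UMIs, 3.51 ± 0.26, edgeR adjusted p 1.94e-38), the chloride channel genes Bsnd (1.96) and Clcn5 (1.26), the ammonia carrier Rhbg (1.17) and the carbonic anhydrase Car2 (1.05). The potassium channels Kcnj10 (2 against 57 UMIs) and Kcnj16 (log2 fold -1.60) and the cotransporter Slc12a2 (-2.11) were lower. Of 11 other intercalated genes, some of them shared with both lists, 6 rose and 0 fell.

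**Figure D4:**
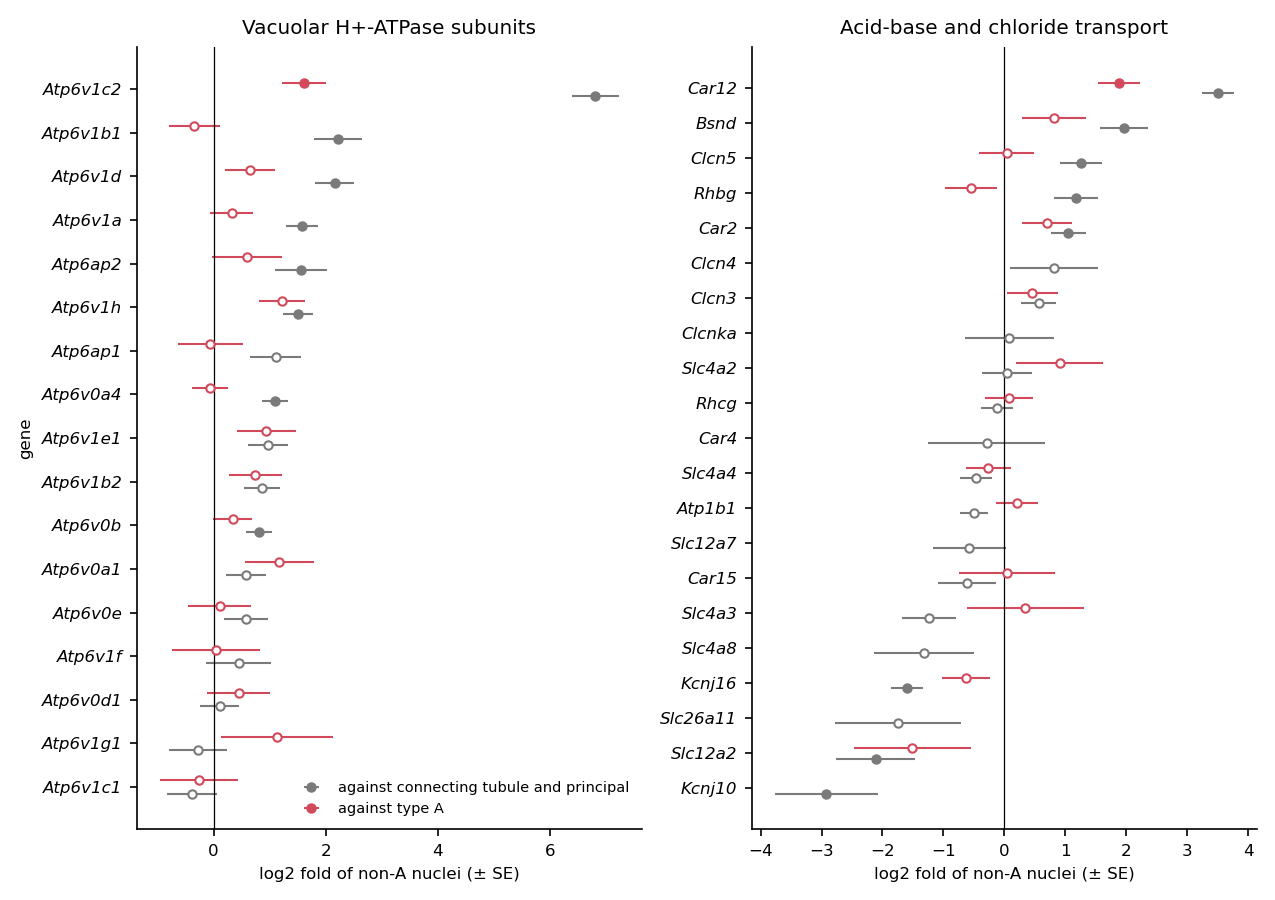
Log2 fold of non-A nuclei (± SE of edgeR) for V-ATPase genes and most acid-base transport genes tested, against type A nuclei and against connecting tubule and principal nuclei. Filled points passed an adjusted p of 0.05: 8 of 17 V-ATPase genes against connecting tubule and principal nuclei and 1 of 17 against type A nuclei.

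Of 22 receptor and signalling genes 5 rose and 6 fell against connecting tubule and principal nuclei. Oxgr1, the receptor for the metabolite oxoglutarate in type B cells, had 22, 16, 22, 0 and 4 UMIs in the non-A nuclei of the 5 libraries and 5 UMIs in all 693 reference nuclei (log2 fold 5.13 ± 0.53, edgeR adjusted p 6.69e-20). Ptger3 (3.16), Adgrf5 (3.49) and Casr (1.49) rose too, and Sctr, the secretin receptor, was at least 16.8-fold higher (15 against 0 UMIs). The lower ones were Hsd11b2, which shields the mineralocorticoid receptor from glucocorticoids (8 against 305 UMIs, -3.63 ± 0.43), Avpr2, the vasopressin receptor of principal cells (3 against 126 UMIs, ratio 0.080, 0.016 to 0.240), and Egfr, Wnk1, Igf1r and Nr3c2 (-1.28 to -0.73).

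Of 18 transcription factor and Notch genes Hmx2 and Jag1 rose and Tfap2b, Elf5, Gata3 and Notch2 fell. Jag1, a Notch ligand, stood at 158, 120, 225, 178 and 96.8 CPM in non-A nuclei and at 11.9, 7.01, 22.1, 0 and 0 CPM in the reference, with no overlap (log2 fold 3.68 ± 0.51, edgeR adjusted p 9.91e-11). Notch2, a receptor for such ligands, had a log2 fold of -1.56 ± 0.50, and Tfap2b of -2.63 ± 0.47. Principal cell markers outside the rule, Hsd11b2, Fxyd4, Aqp4, Apela and Avpr2, fell too. Of the genes with the largest falls, Egfem1 had 9 against 891 UMIs (log2 fold -5.16 ± 0.37), Kif26b, a kinesin, 6 against 393, Aim1 8 against 320, and Kitl, the ligand of Kit, 3 against 185 (ratio 0.055, 0.011 to 0.162). Kcne1, a potassium channel subunit, was at 0 in non-A nuclei and at 33 UMIs in the reference (at least 3.27-fold lower). Tnfaip2, Coro2a, Anks6, Fanca, Lypd6, Ptgs1, Adamts3, Adamts16 and Scamp5 had 0 to 3 UMIs in non-A nuclei against 26 to 130. Phactr1, chosen after its values were seen, was higher than in type A nuclei (187 against 11 UMIs) and lower than in this reference (189 against 3104 UMIs, log2 fold -2.64 ± 0.24). Without the GFP-negative library 106 genes were higher and 129 lower.

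After IRI no non-A value could be tested, and the 3 times share the uninjured GFP-positive library of 25 non-A nuclei as reference. Of 2453 genes measured at 64 h (at least 10 UMIs over both sums), 353 were at least 2-fold higher (14.4%) and 281 at least 2-fold lower (11.5%). Of 1161 at 96 h, 122 were higher (10.5%) and 429 lower (37%), but scaling by TMM factors, which moved the median by -0.74 on the log2 scale, gave 37 and 637 and divides each 96 h ratio below by 1.67. Of 1924 at 28 d, 197 were higher (10.2%) and 220 lower (11.4%). The summed level of 10 proximal tubule markers in non-A nuclei moved with these comparisons, at 1296 CPM in GFP-negative, 6998 in uninjured GFP-positive, 1529 at 64 h, 2230 at 96 h and 7406 at 28 d. Their part in the results was not tested.

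Spp1, osteopontin, a secreted protein that injured tubules make, was higher at both early times. It stood at 182 CPM in GFP-negative, 301 in uninjured GFP-positive, 2729 at 64 h, 1695 at 96 h and 363 at 28 d. That was 9.07-fold higher at 64 h (182 against 15 UMIs, 5.36 to 16.5) and 5.63-fold at 96 h (19 against 15 UMIs, 2.71 to 11.9), with 1.21-fold (0.550 to 2.65) at 28 d. The same ratio at 64 h was 3.59 in connecting tubule and principal nuclei and 5.25 in proximal tubule nuclei. Of the 182 UMIs, 89 lay in the Lsamp-led cluster. Within that cluster Spp1 stood at 1919 CPM at 64 h and 426 CPM without injury (89 against 7 UMIs), and at 1227 CPM at 96 h on 6 UMIs. Clu had 0, 2, 17, 9 and 1 UMIs and S100a6 2, 1, 12, 9 and 0 in the 5 libraries. The summed level of the 26 genes of the injury list was 640, 602, 3884, 4371 and 871 CPM, so both early times lay above all others. That sum held 259 UMIs at 64 h and 49 at 96 h, most of them from Spp1, Clu and S100a6. Only 4 of the 26 genes at 64 h and 3 at 96 h had at least 10 UMIs over both sums, so it is not broad evidence over the list.

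At 64 h Mid1, an X-linked ubiquitin ligase (190 against 11 UMIs, 12.9-fold, 7.06 to 26.3), and Mrap2, a melanocortin receptor accessory protein (52 against 2, 19.4-fold, 5.12 to 165), were also higher. Mrap2 rose in other nuclei too, 18.5-fold in connecting tubule and principal and 10.7-fold in proximal tubule nuclei. The Mid1 ratio was larger in other nuclei, 23.4-fold in connecting tubule and principal and 17.4-fold in proximal tubule nuclei, and it was 8.56-fold higher at 28 d (4.53 to 17.9) but had 1 UMI at 96 h. Ptger3 had 23, 5, 48, 2 and 3 UMIs in non-A nuclei, and was 7.18-fold higher at 64 h (2.87 to 23.1), against 1.35-fold in connecting tubule and principal and 0.519-fold in proximal tubule nuclei. Of its 48 UMIs at 64 h, 43 lay in the Lsamp-led cluster, against 0 of 5 without injury. Cp, ceruloplasmin, the copper-carrying ferroxidase, had 12, 0, 24, 4 and 3 UMIs and was at least 5.98-fold higher at 64 h than in the uninjured GFP-positive library. Connecting tubule and principal nuclei had 4 UMIs of Cp at 64 h and 6 without injury, and 21 of the 24 UMIs lay in the cluster. The GFP-negative library, also uninjured, had 94.8 CPM of Cp against 360 CPM at 64 h, and 182 CPM of Ptger3 against 720 CPM. Sytl2 had 21 against 0 UMIs, 2 of them in the cluster, and Sorbs2 23 against 1. In connecting tubule and principal nuclei Sytl2 was 12.0-fold and Sorbs2 3.64-fold higher. Sorbs2 also stood at 213 CPM in the uninjured GFP-negative library, against 345 CPM at 64 h.

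The summed pump and transport transcripts of non-A nuclei, counted without the genes of the rule, lay within counting error of the uninjured level at 64 h and 28 d. The V-ATPase list summed to 4351 CPM without injury (GFP-positive) and to 4558 (64 h), 4550 (96 h) and 3993 CPM (28 d), with ratios of 1.05 (0.877 to 1.25), 1.05 (0.755 to 1.42) and 0.918 (0.745 to 1.13). The acid-base list had ratios of 1.00 (0.855 to 1.18), 1.16 (0.878 to 1.51) and 0.990 (0.826 to 1.19). At 96 h the TMM scaling took both below 1, to 0.625 (0.451 to 0.851) and 0.692 (0.525 to 0.901). The 3 genes that chose the class, given as a description, summed to 0.750 (0.654 to 0.859), 0.703 (0.535 to 0.911) and 0.632 (0.535 to 0.745) of the uninjured level. The receptor and signalling list summed to 1.27 (64 h, 1.08 to 1.504), 0.649 (96 h, 0.439 to 0.933) and 0.767 (28 d, 0.620 to 0.946) of it, so it lay above at 64 h and below at the later times. Of its measured genes 3 of 15 were at least 2-fold higher and 2 lower at 64 h (14.4 and 11.5% of all genes), 0 and 6 of 10 at 96 h (10.5 and 37%) and 1 and 3 of 12 at 28 d (10.2 and 11.4%). By point value Agtr1a was at least 2-fold lower at all 3 times, Casr at 64 h and 96 h, and Oxgr1 at 96 h and 28 d. These falls rest on few UMIs. Casr had 4 UMIs at 64 h against 10 without injury, and the Oxgr1 counts given above were small at those times too. No intervals are given for them, so they were not set apart from counting error. Kcnq3 was lower at 64 h too (1 against 10 UMIs, ratio 0.075, 0.002 to 0.526). Pde1c, a phosphodiesterase, had 31, 5, 41, 6 and 17 UMIs, and was 6.13-fold higher at 64 h (2.43 to 19.9), 5.34-fold at 96 h (1.36 to 22.1) and 4.10-fold at 28 d (1.45 to 14.2). Defb1 was 4.34-fold higher at 64 h (29 against 5 UMIs, 1.66 to 14.4). Pde1c and Defb1 were also at least 2-fold higher in the uninjured GFP-negative library than in the uninjured GFP-positive one (Defb1 205 against 100 CPM).

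The genes with the largest falls at 64 h were Fut8, Hsd3b2, Kcnj15, Acsm2, Keg1, Mlxipl and Kap, several of them proximal tubule genes. Keg1, for example, had 21 against 160 UMIs and was 10.2-fold lower, with 9 of the 160 in the Lsamp-led cluster. At 96 h, where the class had 11210 UMIs, Stat3, a signal transducer of cytokine receptors, was 5.56-fold higher (15 against 12 UMIs, 2.43 to 13.0). Vmp1, Slc6a18, Naaladl2, Itgav and Chka were 2.88-fold to 5.19-fold higher, on 10 to 37 UMIs at 96 h. Slc6a18 had 10 against 10 UMIs (1.66 to 11.9), Itgav 10 against 15 (1.19 to 7.06) and Chka 11 against 17 (1.22 to 6.51). Divided by the TMM ratio of 1.67, the lower bounds of Slc6a18, Itgav and Chka fell under 1. Their rises were thus not set apart from counting error under that scaling. Those of Vmp1 (14 against 12 UMIs) and Naaladl2 (37 against 48) stayed above 1. Thsd7a, a thrombospondin-domain membrane protein, had 85, 27, 27, 0 and 27 UMIs, so that it was at least 2.02-fold lower at 96 h, and 23 of the 27 uninjured UMIs lay in the cluster. Nox4, Kap, Magi2, Acsm1, Ugt2b38 and Bnc2 were at 0 at 96 h too, with 22 to 56 UMIs without injury and 0 to 12 of these in the cluster.

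At 28 d Hmx2 was 3.62-fold higher than without injury (15 against 5 UMIs, 1.25 to 12.7), with 13 of the 15 in the Lsamp-led cluster. It was 3.31-fold higher (1.31 to 10.7) in the uninjured GFP-negative library as well. Hsp90b1, a chaperone of the endoplasmic reticulum, was 4.10-fold higher (17 against 5 UMIs) and Caprin1, an RNA-binding protein, 3.47-fold. Cyp7b1, an oxysterol hydroxylase of late proximal tubule, was 13.3-fold higher (22 against 2 UMIs, 3.26 to 116), with 0 of the 22 in the cluster. Malrd1 and Pclo each had 5 against 36 UMIs and were 5.97-fold lower. Magi2, Epc1, Tbl1x, Atg4b, Ppara and Rsf1 were 3.65-fold to 5.39-fold lower.

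**Figure D5:**
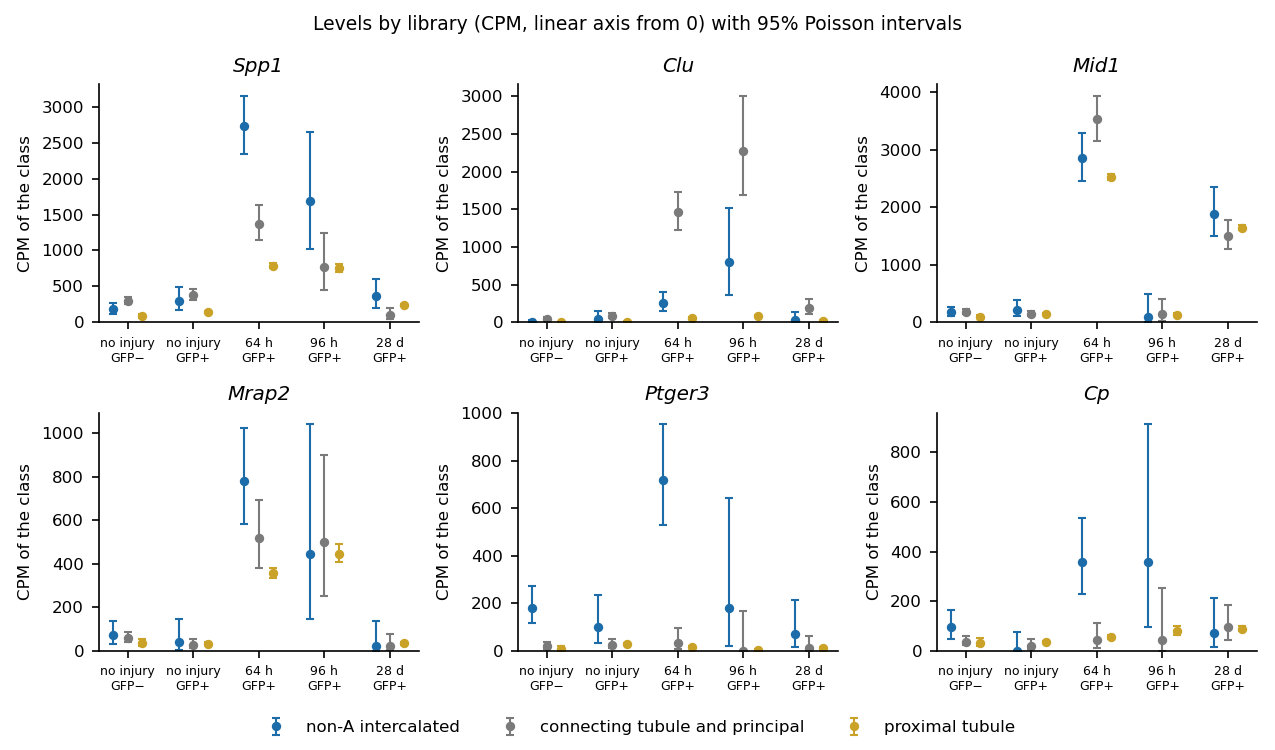
CPM of named genes per library in non-A, connecting tubule and principal, and proximal tubule nuclei, with exact 95% Poisson intervals. Spp1 in non-A nuclei stands at 2729 CPM at 64 h and 1695 at 96 h and at 182 to 363 CPM in the other libraries, and Ptger3 is highest in non-A nuclei at 64 h (720 CPM).

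The sort was compared in uninjured kidneys, GFP-negative against GFP-positive non-A nuclei. Of 3611 genes measured, 587 were at least 2-fold higher in GFP-negative (16.3%) and 479 lower (13.3%), and TMM scaling, which moved the median by 0.22, gave 809 and 337. Sgcd, a sarcoglycan, had 127, 3, 1, 1 and 10 UMIs in the 5 libraries and was 16.7-fold higher in GFP-negative (5.58 to 82.0), with 123 of the 127 in the Lsamp-led cluster. Its ratio was 2.02 in connecting tubule and principal nuclei. Bglap3 had 24 against 0 UMIs (at least 3.15-fold, 23 in the cluster), and Tmsb4x, Mgat4c, Rbms3, Sorbs2 and Erc1 were higher too. Slc5a12, Slc13a1, Dab2, Hsd3b2 and Ftcd of the proximal tubule, Maf, Nox4 and Rgl1 were lower. Dab2, an endocytic adaptor, had 21 against 165 UMIs (19.9-fold lower), and 4 of the 165 lay in the cluster.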

How the data were processed

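Per the submitters' processing notes, the tools were Cell Ranger 2.1, STAR 2.5.1b and bcl2fastq 2.17, and the genome was mm10. Per the labels, nuclear polyA RNA was captured with 10x Chromium v2 chemistry. The deposited values are raw UMI counts per nucleus for 27998 genes, which the authors counted against a pre-mRNA reference. The authors' cell type calls were not used here.

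Nuclei with at least 200 detected genes were kept and typed by the rules in the text. No doublet caller was run. Summed counts per library and class were tested with edgeR 4.0.16 (R 4.3.3; TMM, library block, at least 15 UMIs, at least 5 nuclei per class and library, Benjamini-Hochberg over all genes). The minimum of 5 nuclei was not applied where both classes were cut to the Lsamp-led cluster. DESeq2 1.42.0 was an alternative. The script was tested on simulated data. Conditions had 1 library each: ratios carry exact conditional Poisson, levels exact Poisson and shares Clopper-Pearson 95% intervals, and bounds on a fold use 3 counts. Clustering used scanpy 1.11.5 (2000 variable genes, 30 components, 15 neighbours, Leiden resolution 1.0, 18 clusters). Coordinates came from GENCODE mouse release 21, where 113 of 113 genes matched by identifier. Slc26a4 and Lsamp promoters were matched in RefSeq by symbol. The libraries carry no replicate numbers.

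Named genes are the rule's genes, the 15 called genes with the largest folds each way that had 1 sign in every library, the 8 with the largest folds each way per condition (at least 20 UMIs, interval without 1), and list members. Unnamed models were left out, and some genes that met the rule are not reported here. The members and lists were chosen with earlier results of these data known.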

Additional observations from a re-analysis of the deposited data

How the results depend on the processing

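Dropping the condition on Flt1 and Slc12a3 raised the GFP-negative share to 3.18%, and thinning to 800 UMIs gave 3.65%. Against type A nuclei, 16 genes were higher and 3 lower with DESeq2, 6 were lower without a filter on low counts, and 20 were higher and 2 lower with no replicate block, that is without the library term. Leaving out each library gave 20 to 47 higher and 0 to 19 lower genes, the lowest of both without the uninjured GFP-negative library and 6 lower without the uninjured GFP-positive one. In the Lsamp-led cluster alone, an alternative chosen after seeing the data, 15 were higher and 0 lower, with 1 type A nucleus left in the uninjured GFP-positive library. Against connecting tubule and principal nuclei, DESeq2 gave 122 and 110, no replicate block 120 and 111, leaving out each library 106 to 206 and 129 to 286, and the cluster alone 493 lower. No paired analysis was possible because the labels give each group 1 library and no numbers that pair them, beyond the library block itself.

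Counts of genes at least 2-fold higher and lower moved with the minimum. With at least 30 UMIs they were 55 and 46 at 64 h, 12 and 54 at 96 h, and 18 and 27 at 28 d. In the cluster alone they were 225 and 133, 25 and 72, and 44 and 59, and 260 were lower in GFP-negative. With TMM factors 37 were higher at 96 h. The median log2 fold of the acid-base list at 96 h changed sign with TMM factors, from 0.23 to -0.51. The named genes' values under alternatives other than the cluster alone were also labelled. A total of 485 kept their call in a fit or stayed within the counting interval of a ratio. In the fits 63 lost their call, and 1 ratio left its interval. Values that an alternative did not measure or adjust are not in these counts. With DESeq2 against type A nuclei 5 named genes kept their call, 4 lost it and the others had no adjusted p. The causes were not tested. Depth limits the 96 h library most.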

Other observations

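Non-A nuclei held few transcripts of cell types outside the tubule. No UMI of the 6 podocyte markers was found in non-A nuclei of any GFP-positive library, and the GFP-negative library held 13. The 7 endothelial markers gave 15, 0, 3, 0 and 1 UMIs in the order GFP-negative, uninjured GFP-positive, 64 h, 96 h and 28 d, the 7 stromal markers 13, 2, 1, 0 and 1, and the 7 macrophage markers 3, 1, 2, 0 and 3. The endothelial list includes Flt1, which the rule held at 0, so its sum was lowered by the choice of nuclei. Of the 7 macrophage markers, Adgre1 and Itgam were at 0 in all 5 libraries. Other members were not, since Ptprc and Csf1r had UMIs in the GFP-negative library. Thick ascending limb markers summed to 1091, 1203, 600, 624 and 702 CPM.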
